A study of Homo sapiens with 36 samples.

Results

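The effect of induced NR2F1 during BRAFi + MEKi treatment was compared between 2 human BRAF-mutant melanoma lines, WM793 and A375. The 12 libraries compared were all those of the lines WM793TR-NR2F1 and A375TR-NR2F1 given BRAFi + MEKi, with or without doxycycline (DOX), out of 36 RNA-Seq libraries in the series. They form 4 groups of 3 libraries each. For every gene, the change with DOX in WM793 minus the change with DOX in A375 was tested, and the genes for which this difference passed the test are described here: 236 of 26779 genes tested. The value of a gene is its deposited normalized expression value, and changes were taken on log2(value + 1).

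Both lines carry the Tet repressor (TR) and a lentiviral NR2F1 cDNA that DOX switches on, and were selected with hygromycin. Cells were kept for 24 hours with or without DOX at 100 ng/mL, and then for 72 hours with the BRAF inhibitor PLX4720 at 1 uM and the MEK inhibitor PD0325901 at 35 nM. The vehicle groups, used here for comparison, received DMSO with or without DOX. The series also holds the same 4 treatments in another line, 1205Lu. Every DOX library carries the NR2F1 cDNA, so effects of DOX itself and of NR2F1 cannot be told apart. Different culture media were used for the lines, so line and medium cannot be told apart either. The labels number the replicates without saying how they were obtained, and by the study's methods replicates in vitro came from separate experiments. The p-values measure the spread between these samples. In bulk RNA, fewer cells of a type and less RNA per cell cannot be told apart.

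BRAF and MEK are kinases of the pathway that ends in ERK, which in melanoma drives the genes that bring cells from G1 into S phase. When cells stop dividing, the genes for DNA replication are switched off through RB and E2F, and the genes for mitosis through the DREAM complex, which binds the cell cycle homology region (CHR) of their promoters, often beside CCAAT boxes bound by NF-Y. NR2F1 (COUP-TF1) is an orphan nuclear receptor that binds AGGTCA sites and is known as a marker of tumor dormancy.

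The promoters of 6 genes with a difference are shown because 81 of the 189 genes with a lower DOX effect in WM793 belong to lists of cell cycle genes. KIF20B, BUB1, CKS2, SHCBP1 and ERCC6L act in division and had lower DOX effects in WM793, and RYR2 had a higher one. Each sequence is the 250 bases before the RefSeq start on GRCh38.p14, read on the strand of the gene. KIF20B is at chr10:89701340-89701589 on the plus strand, BUB1 at chr2:110678064-110678313 on the minus strand and CKS2 at chr9:89310945-89311194 on the plus strand. SHCBP1 is at chr16:46621380-46621629 on the minus strand, ERCC6L at chrX:72239028-72239277 on the minus strand and RYR2 at chr1:237041934-237042183 on the plus strand. Capitals mark matches, on either strand, to the CHR (TTTGAA or TTCGAA), the CCAAT box (CCAAT), the COUP-TF site (AGGTCA) and the TEAD site (GGAATG).
KIF20B: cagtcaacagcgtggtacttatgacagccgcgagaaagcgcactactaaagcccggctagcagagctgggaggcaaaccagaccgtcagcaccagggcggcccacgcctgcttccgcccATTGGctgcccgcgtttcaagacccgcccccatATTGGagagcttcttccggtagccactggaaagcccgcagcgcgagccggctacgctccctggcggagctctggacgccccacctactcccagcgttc
BUB1: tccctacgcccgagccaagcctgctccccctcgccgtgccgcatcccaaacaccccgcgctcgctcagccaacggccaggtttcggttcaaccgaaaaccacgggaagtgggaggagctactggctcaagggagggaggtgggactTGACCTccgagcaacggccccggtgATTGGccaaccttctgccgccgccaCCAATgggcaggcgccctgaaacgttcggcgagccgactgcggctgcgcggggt
CKS2: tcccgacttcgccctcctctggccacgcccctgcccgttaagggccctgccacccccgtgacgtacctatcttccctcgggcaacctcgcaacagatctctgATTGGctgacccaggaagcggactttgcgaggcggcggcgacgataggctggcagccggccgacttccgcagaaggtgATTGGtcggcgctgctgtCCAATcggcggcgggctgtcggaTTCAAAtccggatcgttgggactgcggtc
SHCBP1: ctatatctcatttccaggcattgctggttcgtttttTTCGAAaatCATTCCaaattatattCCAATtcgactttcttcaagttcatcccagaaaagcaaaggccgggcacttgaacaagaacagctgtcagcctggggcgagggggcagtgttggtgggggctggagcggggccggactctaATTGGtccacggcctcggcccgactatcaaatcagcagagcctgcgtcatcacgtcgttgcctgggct
ERCC6L: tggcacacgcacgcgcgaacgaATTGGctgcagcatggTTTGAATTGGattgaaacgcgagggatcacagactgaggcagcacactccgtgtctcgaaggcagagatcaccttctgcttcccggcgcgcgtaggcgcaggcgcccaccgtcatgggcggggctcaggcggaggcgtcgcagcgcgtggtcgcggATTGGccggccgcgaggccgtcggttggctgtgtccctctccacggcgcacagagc
RYR2: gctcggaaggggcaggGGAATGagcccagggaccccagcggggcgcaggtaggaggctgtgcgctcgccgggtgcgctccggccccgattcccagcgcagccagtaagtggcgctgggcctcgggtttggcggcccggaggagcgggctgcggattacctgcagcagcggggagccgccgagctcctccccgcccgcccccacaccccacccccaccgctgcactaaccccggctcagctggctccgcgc

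CKS2 held a CHR 29 bases before its start, with CCAAT matches at 52, 70 and 148 bases. The CHR of ERCC6L lay 212 bases before the start and shared 1 base with a CCAAT match. BUB1 held 2 CCAAT matches and an AGGTCA site 104 bases before the start, and KIF20B held CCAAT matches only. The only match in RYR2 was a TEAD site.

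Of the mitosis genes with a lower DOX effect in WM793, 52 of 63 had a promoter in the RefSeq table. A CHR was found in 29 of them (55.8%) and a CCAAT box in 39 (75%). Among all genes with a lower effect the shares were 34% and 61.8% of 144 promoters, and among those with a higher effect 9.09% and 50% of 22. Over all 27305 promoters of the same length they were 14.6% and 33%, and over the genes tested 11.1% and 34.8%. The AGGTCA site was found in 9 of the 144 promoters (6.25%) and in 3 of the 22 (13.6%), against 12.1% of all promoters and 9.6% of those of genes tested. The TEAD site was found in 15 of the 144 (10.4%) and in 6 of the 22 (27.3%), against 11.9% of all promoters and 9.98% of those of genes tested. Shares were not taken for mitosis genes without a difference, so the CHR share cannot be tied to the difference. All of these are matches of letters in a window and do not show binding.

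NR2F1 itself was induced in both lines. In WM793 its values were 894, 689 and 3690 under BRAFi + MEKi and 30421, 50934 and 47577 with DOX. In A375 they were 1327, 1223 and 1431 without DOX and 23714, 35683 and 14995 with DOX. The groups did not overlap in either line. NR2F1 rose by 4.99 on the log2 scale in WM793 (adjusted p = 8.2e-07) and by 4.14 in A375 (adjusted p = 3.3e-06, limma with Benjamini-Hochberg adjustment, which gives every adjusted p here), and the difference was 0.86 (SE 0.70, adjusted p = 0.85). It was 0.39 to 1.60 in the fits that left out 1 library, with 0.39 without replicate 2 and 1.60 without replicate 3 of WM793 under BRAFi + MEKi. The reads of the cDNA and of the cell's own gene cannot be told apart in these values, and those of the antisense gene NR2F1-AS1 may be included.

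The 12 libraries summed to normalized totals of 27027824 to 29958306. The read depth behind them was estimated from the commonest low value of each library at 27600000 to 53100000. Of the DMSO libraries, replicate 1 of WM793 under DMSO had the lowest estimate of all 36 (6600000) and the fewest genes above 0 (16636), and its values enter only the comparisons with DMSO and the shared estimate of spread. By mean log2 values the libraries labelled 1205Lu, a line derived from WM793, correlated at 0.976 with those labelled WM793 and at 0.95 with those labelled A375, and each of the 36 libraries was closest, outside its own group, to a library of the same line. Correlations between replicates of a group were 0.989 to 0.994 across genes in the 12 libraries compared and 0.983 to 0.994 in all 36. Of the melanoma markers, SOX10 was high in all 12 libraries (13869 to 24854), while MLANA and TYR were at 0 in all 6 treated WM793 libraries. In the treated A375 groups the medians of MLANA and TYR were 0 as well, with highest values of 0.974 and 4.9. Replicate 3 of A375 stood apart in all 4 A375 groups. Its mean log2 level of MHC class II genes was 9.35 against 10.68 and 10.70 under DMSO, 8.31 against 9.37 and 9.49 under DMSO + DOX, 10.68 against 11.91 and 11.96 under BRAFi + MEKi and 9.83 against 10.82 and 10.85 under BRAFi + MEKi + DOX, and that of the melanoma markers was the lowest of its group each time. Under BRAFi + MEKi, DCT, a pigment enzyme, was at 1247 in it against 12968 and 13703, and counts without that library stand beside the results. Of 7 leukocyte markers, 4 had a mean of at least 1 in A375 without DOX and 5 with DOX, and their summed value there was 3276 to 6571 and 2169 to 3722, against 528 to 993 and 787 to 1449 in WM793. Summed keratinocyte and endothelial markers stayed between 178 and 996. Their part in the results was not tested.

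The lines differed mainly in genes that A375 raised with DOX and WM793 did not. The DOX effect was lower in WM793 for 189 genes (0.706% of the genes tested) and higher for 47 (0.176%), together 0.881%. Of the 189, 175 rose with DOX in A375 and were not called in WM793, 3 fell in WM793 and were not called in A375, and 11 were called in neither line. Of the 47, 28 fell in A375 only, 12 rose in WM793 only, and 7 were called in neither. No gene with a difference was called in both lines.

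The median difference of the 189 genes was -1.96, with a median change of -0.18 in WM793 and of 1.79 in A375. For the 47 genes it was 2.03, with medians of 0.47 and -1.34. The medians over all genes tested were 0. The levels of the 2 sets differed as well: 164 of the 189 had a mean of at least 50 over the 12 libraries, against 8 of the 47, and 36 of the 47 had a mean under 10. Protein-coding genes made up 173 of the 189 and 23 of the 47. Of the 47 higher genes, 17 were listed at 0 in all 6 treated WM793 libraries, so that their difference rests on A375 alone, and 5 in all 6 treated A375 libraries, so that theirs rests on WM793 alone. Of the 189 lower genes, 13 were listed at 0 in all 6 treated WM793 libraries and 0 in those of A375. Within each line, 543 genes (2.03%) changed with DOX in A375, 418 up and 125 down, and 56 (0.209%) in WM793, 31 up (0.116%) and 25 down (0.0934%). The WM793 count was 126 without replicate 1 of BRAFi + MEKi + DOX and 35 without replicate 2 of BRAFi + MEKi. It was 26 with only the libraries compared and 608 with array weights. The 47 higher genes became 15 with only the libraries compared, 20 with a minimum mean of 10 and 241 with array weights. Without replicate 3 of A375 under BRAFi + MEKi, 361 genes differed, 90 higher and 271 lower, and 825 changed in A375. With the replicate number as a block within each line, 365 genes differed, 87 higher and 278 lower, 229 of them among the 236, and 138 changed in WM793.

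**Figure D1:**
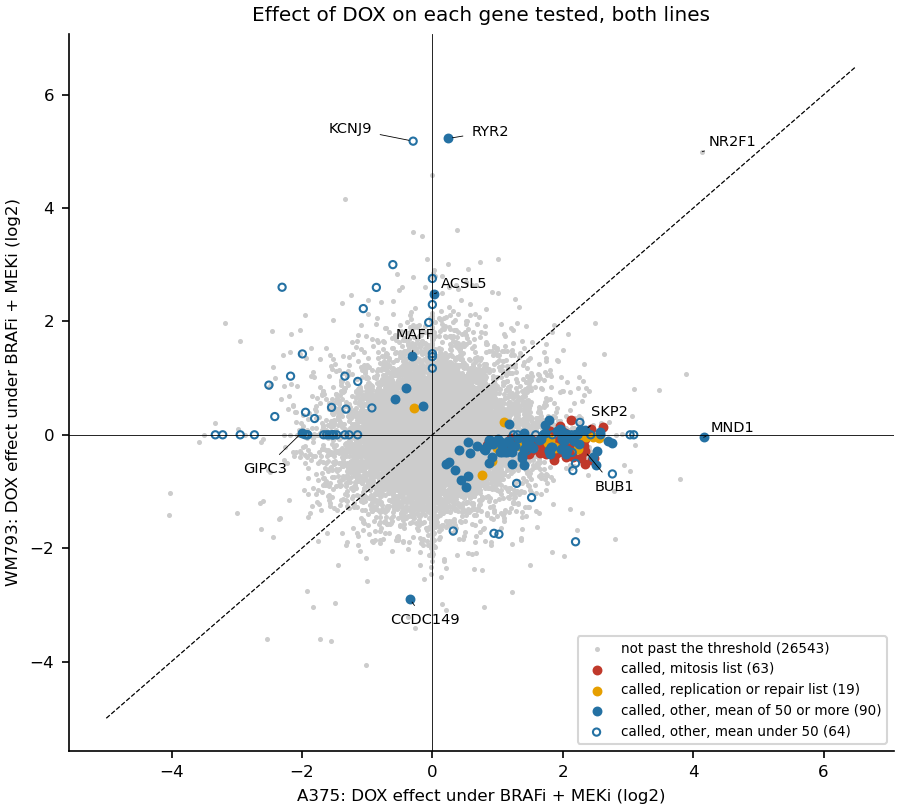
DOX effect under BRAFi + MEKi in A375 (x axis) against WM793 (y axis), each as a log2 change of value + 1 with 3 libraries per group; each point is a gene, and colors mark the 236 called genes by list and level. Called mitosis genes lie near 0 on the WM793 axis and above 0 on the A375 axis, while RYR2 and KCNJ9 lie high on the WM793 axis.

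Most genes of mitosis had a lower DOX effect in WM793. The mitosis list (spindle, kinetochore, checkpoint and cytokinesis genes) had 81 members tested. Of these, 63 had a lower DOX effect in WM793 and none a higher one, beside 0.706% and 0.176% of all genes tested. The median difference of the list was -1.93, with quartiles of -2.25 and -1.61, and 80 of 81 members were below 0. In A375, 77 of 81 rose (1.56% of all genes tested rose), with a median of 1.80. In WM793 limma called none in either direction (0.209% of all genes), 0 of 81 reached an unadjusted p under 0.05 (1004 of all 26779 higher and 839 lower), and the median was -0.16. Without replicate 3 of A375 under BRAFi + MEKi, 71 of the 81 had a lower effect.

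Fewer genes of DNA replication and repair passed the test. Of all genes tested, 0.706% had a lower effect in WM793 and 0.176% a higher one. For DNA replication (origin licensing, polymerases, histone supply), 9 of 56 members had a lower effect and none a higher one, although all 56 differences were below 0, with a median of -0.84. The count was 18 with the replicate block and 4 to 13 without 1 library, and it was 4 or 5 without replicate 2 of A375 or 1 of WM793 under BRAFi + MEKi, or without replicate 3 of A375, 2 of WM793 or 3 of WM793 under BRAFi + MEKi + DOX. In A375, 28 of the 56 rose, beside 1.56% of all genes tested. In WM793 limma called none, beside 0.209% of all genes, and 1 of 56 reached an unadjusted p under 0.05, beside 1004 higher and 839 lower of all 26779. For DNA repair and checkpoint, 9 of 43 were lower with a median of -0.65, and 1 was higher. The higher one was FANCL, a ubiquitin ligase of the Fanconi pathway that was outside the rule for named genes (0.75, SE 0.18, adjusted p = 0.035). In A375, 22 of the 43 rose. In WM793 limma called none of them, and 2 higher and 1 lower reached an unadjusted p under 0.05. Of 33 G1 regulators, limma called no difference, 2 higher and 7 lower had an unadjusted p under 0.05 (1003 and 1236 of all 26779), and the median was -0.08. Within A375, 6 of the 33 rose. Within WM793 limma called none, and 3 higher and 1 lower had an unadjusted p under 0.05. CCND1, which encodes the cyclin D1 that pairs with CDK4 and CDK6, had a difference of 0.75 (SE 0.40, adjusted p = 0.65), and CDKN1B, which encodes the inhibitor p27, had one of -0.07 (SE 0.28, adjusted p = 1).

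The mean log2 level of the 81 mitosis genes shows where each line stood. In A375 it was 11.21, 11.17 and 11.16 under DMSO, 7.57, 7.51 and 8.29 under BRAFi + MEKi and 9.31, 9.29 and 9.90 with DOX added. In WM793 it was 11.11, 11.07 and 11.15 under DMSO, 10.69, 11.14 and 10.91 under BRAFi + MEKi and 10.69, 10.79 and 10.84 with DOX. The inhibitors thus left the mitosis level of WM793 near that of DMSO, whereas in A375 they lowered it far below, and DOX brought it part of the way back. The DOX and inhibitor comparisons share the BRAFi + MEKi libraries.

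By gene, 81 of the 81 mitosis members fell with BRAFi + MEKi in A375 (17.2% of all genes tested fell), with a median of -3.63. In WM793, 13 of the 81 fell and 3 rose (13.5% and 17.7% of all genes), with a median of -0.21. For DNA replication, 53 of 56 fell in A375 and 11 of 56 in WM793, with medians of -1.78 and -0.24. Whether the lower starting level in A375 has a part in the difference in DOX effect was not tested.

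The ERK output list, genes that the pathway switches on directly, fell in both lines. With the inhibitors 20 of 23 members fell in each line, beside 13.5% of all genes tested in WM793 and 17.2% in A375. The medians were -1.72 in WM793 and -2.40 in A375. DUSP6, a phosphatase that acts on ERK, was at 4070, 5183 and 3470 under DMSO in WM793 and at 1283, 565 and 927 under BRAFi + MEKi. In A375 it was at 3670, 3979 and 5870 and then at 505, 461 and 545. The groups did not overlap in either line. The difference in DOX effect on DUSP6 did not pass the test (-0.02, SE 0.73, adjusted p = 1).

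**Figure D2:**
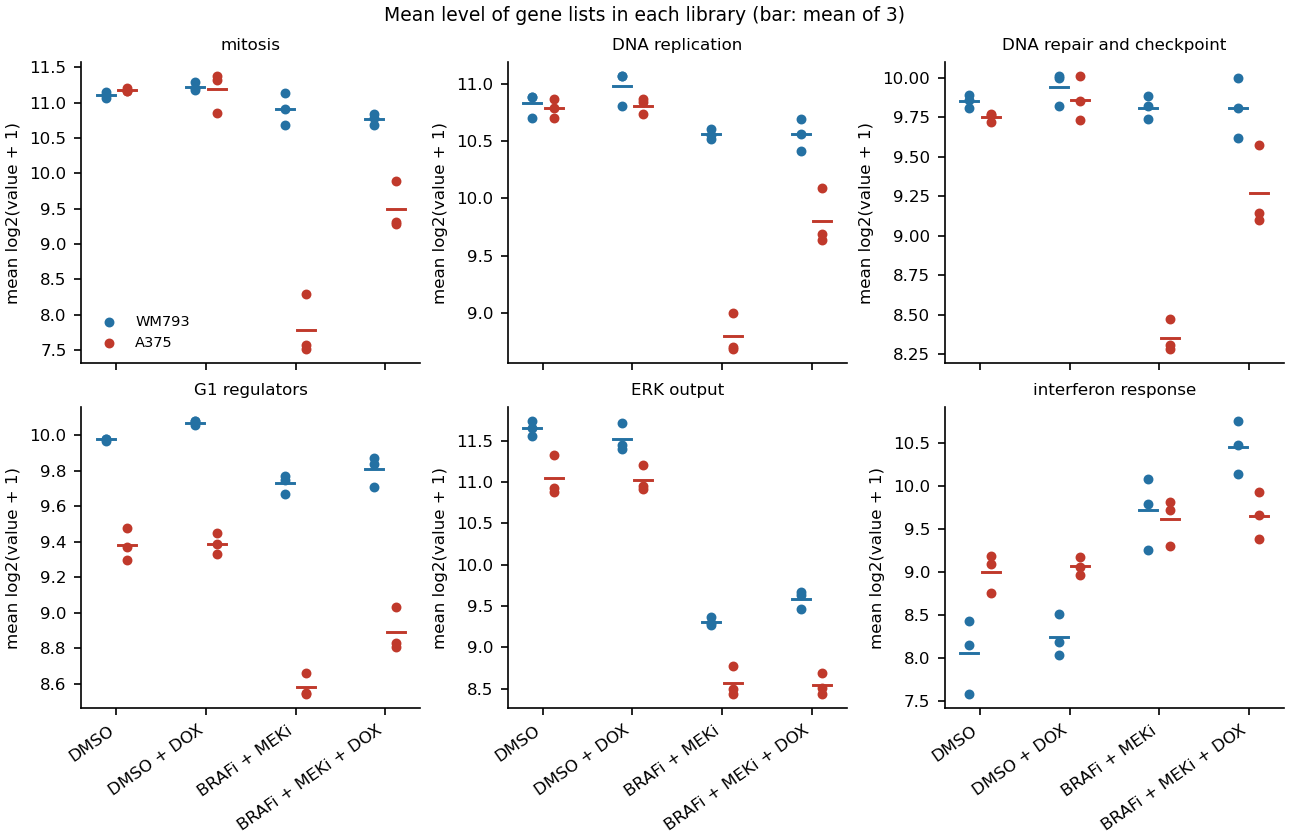
Mean log2(value + 1) of the genes of each list (y axis) in every library of WM793 and A375 by treatment (x axis), with points for libraries and bars for group means. The mitosis level of A375 lies at 7.51 to 8.29 under BRAFi + MEKi and at 9.29 to 9.90 with DOX, while that of WM793 stays between 10.69 and 11.14.

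Among the mitosis genes with the smallest adjusted p was TTK, the kinase MPS1 of the spindle checkpoint. In A375 it was at 84.4, 88.8 and 138 without DOX and at 433, 431 and 746 with DOX. In WM793 it was at 1187, 1350 and 1353 and at 1041, 762 and 943. The A375 libraries rose without overlap. In WM793 the libraries lay lower with DOX, also without overlap, but this change was not called (-0.51, adjusted p = 0.73). The difference was -2.86 (SE 0.35, adjusted p = 8.9e-05).

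BUB1, a checkpoint kinase at the kinetochore, went from 121, 92.5 and 178 to 659, 540 and 731 in A375. In WM793 it was at 2266, 3275 and 2591 without DOX and at 2134, 2232 and 2242 with DOX. The A375 groups did not overlap, and the A375 libraries with DOX remained below every WM793 library. The WM793 libraries lay lower with DOX, also without overlap, but limma called no change there. The difference was -2.62 (SE 0.39, adjusted p = 0.00048).

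KIF20B and KIF23, kinesins of cytokinesis, KNL1, the kinetochore scaffold that recruits BUB1, and CDCA2, which targets a phosphatase to chromatin, followed with differences of -1.96, -1.88, -2.25 and -2.17 and adjusted p of 0.00021, 0.00022, 0.00022 and 0.00043. KIF20B, for example, was at 424, 406 and 536 in A375 without DOX and at 1240, 1447 and 1588 with DOX. Its WM793 values were 2133, 1994 and 1957 and then 1849, 1537 and 1516. Its A375 values rose. Its WM793 values with DOX lay below those without, a change that was not called (-0.32, adjusted p = 0.85).

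In the DNA replication list, ASF1B, a histone chaperone, had the largest difference of the members called that are named here. It went from 174, 114 and 285 to 820, 1068 and 1093 in A375 and was at 1456, 2014 and 1960 and then at 1840, 1536 and 1911 in WM793. The WM793 groups overlapped, and the difference was -2.49 (SE 0.43, adjusted p = 0.0015). ORC6, a subunit of the origin recognition complex, and CLSPN, the checkpoint mediator claspin, had differences of -1.83 and -1.89 (adjusted p = 0.0016 and 0.00066). GINS1 and GINS4, subunits of the replicative helicase, had -1.93 and -1.92 (adjusted p = 0.01 for each).

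PRIM1, the primase subunit that makes the RNA primer, differed in another way. It was at 212, 191 and 274 and then at 301, 333 and 536 in A375, and at 688, 626 and 607 and then at 503, 327 and 367 in WM793. It lay higher with DOX in A375 and lower with DOX in WM793, and neither change passed the test (0.76 and -0.70, adjusted p = 0.11 and 0.36). The difference was -1.46 (SE 0.33, adjusted p = 0.022), and it was called in 6 of 12 fits that left out 1 library.

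The DNA repair genes were led by RAD54B, FANCD2, POLQ, BLM, RAD54L and RAD51AP1, all of which act in recombination or crosslink repair. FANCD2, the protein ubiquitinated in the Fanconi pathway, went from 185, 119 and 135 to 821, 526 and 698 in A375, and from 1953, 1862 and 1876 to 2154, 1480 and 1652 in WM793. Only the A375 groups were apart, and the difference was -2.34 (SE 0.39, adjusted p = 0.00094). POLQ, the polymerase of end joining by microhomology, had a difference of -2.60 (SE 0.45, adjusted p = 0.0014), and BLM, a RecQ helicase, one of -2.48 (SE 0.44, adjusted p = 0.0019). The values for RAD54L, RAD51AP1 and RAD54B, which all act in strand exchange during recombination, were -2.28, -2.13 and -1.37 (adjusted p = 0.0035, 0.0036 and 0.0008).

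The genes with the largest lower differences outside the 4 cell cycle lists, at a mean of at least 50, included several with known roles in division, assigned to it after their values were seen. MND1, which pairs chromosomes in meiotic recombination, was at 1.89, 0 and 6.95 in A375 without DOX and at 44, 26.9 and 104 with DOX, and at 225 to 328 in the 6 WM793 libraries. Its difference, -4.20 (SE 0.80, adjusted p = 0.0039), starts from values near 0 in A375. SHCBP1, which acts in cytokinesis, went from 115, 93.5 and 182 to 876, 753 and 826 in A375 and from 2489, 2208 and 2559 to 2968, 1718 and 2231 in WM793. Its WM793 groups overlapped and its A375 groups did not, with a difference of -2.80 (SE 0.42, adjusted p = 0.00052).

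ERCC6L, a helicase on the DNA bridges of anaphase, had a difference of -2.91 (SE 0.46, adjusted p = 0.00074). DDIAS, a suppressor of cell death after DNA damage, had one of -3.04 (SE 0.51, adjusted p = 0.001), and DEPDC1 one of -2.81 (SE 0.44, adjusted p = 0.00068). CKAP2L, a spindle protein, had -2.39 (SE 0.33, adjusted p = 0.00022), and FBXO43, an inhibitor of the anaphase-promoting complex, had -2.33 (SE 0.48, adjusted p = 0.0094). PCLAF, which binds PCNA, and DTL, the substrate receptor of a ubiquitin ligase that acts on chromatin-bound PCNA, had -2.40 and -2.28 (adjusted p = 0.038 and 0.019), and were called in 4 and 7 of the 12 fits without 1 library. All 7 rose in A375 and none was called in WM793.

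The study named genes from changes within each line of these same samples, not from a test of the difference between lines. Because the samples are the same, these genes are no independent evidence. Of them, 5 had a lower effect in WM793: CDKN3 (-1.79), CKS2 (-1.32), BUB1, FOXM1 (-2.03) and BUB1B (-2.11). All 5 rose in A375, and limma called none of the 5 in WM793. FOXM1, the transcription factor of mitotic genes, was at 234, 199 and 401 and then at 807, 866 and 1522 in A375, and at 2453, 3779 and 3345 and then at 2502, 2983 and 3471 in WM793. The A375 groups were apart and the WM793 groups overlapped (SE 0.36, adjusted p = 0.0019). TK1, thymidine kinase, had a difference of -2.05 that did not pass (SE 0.55, adjusted p = 0.08), and that passed with the replicate block (adjusted p = 0.012).

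The other genes named by the study had differences that did not pass. They were 0.72 for CDKN1A, which encodes the inhibitor p21 (SE 0.49, adjusted p = 0.78), 0.17 for ADAM10, a membrane protease (adjusted p = 0.95), 1.28 for DKK1, a secreted Wnt inhibitor (adjusted p = 0.83), 0.48 for the cytokine IL6 (adjusted p = 0.98), -0.34 for PDK1 (adjusted p = 0.95) and -0.11 for the chaperone HSPD1 (adjusted p = 0.97).

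**Figure D3:**
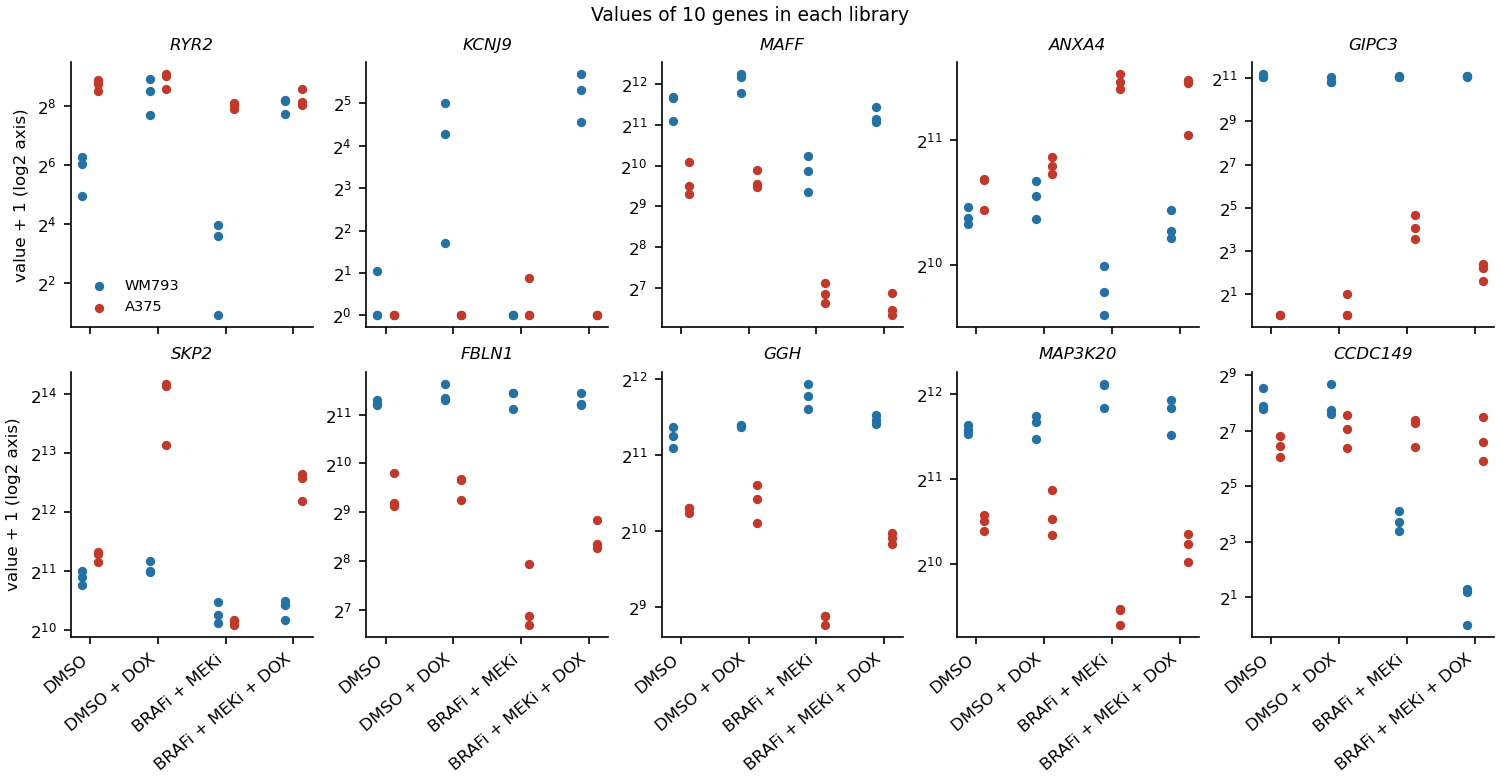
Values plus 1 of 10 genes (y axes, log2 scaled) in each library of WM793 and A375 under the 4 treatments (x axes), with 3 points per group. Under BRAFi + MEKi, SKP2, FBLN1, GGH and MAP3K20 rise with DOX in A375, and RYR2, KCNJ9, MAFF and ANXA4 in WM793.

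Outside the 4 lists of cell cycle genes, which held 81 of the 189 lower genes, a further 54 were assigned to cell division from their known roles after their values were seen. All 54 rose in A375, beside 175 of all 189 lower genes. Their differences were -4.20 (MND1, which has a role in meiosis) to -0.98, with a median of -1.92. The sign of these was fixed by choosing among genes already called lower. PLK4, the kinase that starts centriole duplication, was among the 54, with a difference of -2.19 (SE 0.38, adjusted p = 0.0013). This left 54 genes outside division, 29 of them with a mean of at least 50, of which 21 rose in A375 and 1 fell in WM793. The genes described next without having been named by the fixed rule, PLK4 included, were chosen after their values were seen: SKP2, GGH, MAP3K20, APOBEC3B, FSTL1, FADS1, NID2, NES, SDK1, NEK6 and KCNJ9.

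SKP2 was the division gene whose difference was also present without inhibitors. It encodes the F-box protein that marks p27 for degradation, and lies at chr5:36151989-36196849 on the plus strand (GRCh38, GENCODE 44). In A375 it was at 1140, 1089 and 1154 under BRAFi + MEKi and at 6436, 6127 and 4662 with DOX, and under DMSO at 2519, 2297 and 2583 and then at 18565, 18149 and 9088. In WM793 it was at 1226, 1116 and 1420 and then at 1377, 1159 and 1443 under the inhibitors. SKP2 thus rose with DOX in A375 under both treatments (0.34% of all genes tested changed with DOX in A375 under DMSO, 0.179% up), and its WM793 values overlapped. The difference was -2.25 under BRAFi + MEKi (SE 0.36, adjusted p = 0.00077) and -2.40 under DMSO (SE 0.36, adjusted p = 0.0011).

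GGH, the hydrolase that trims folate polyglutamates, was at 471, 433 and 468 and then at 909, 1002 and 956 in A375. The WM793 values were 3108, 3910 and 3508 and then 2937, 2706 and 2814. It rose in A375. The WM793 libraries with DOX all lay below those without, but this change was not called (-0.31, adjusted p = 0.63). The difference was -1.37 (SE 0.19, adjusted p = 0.00022).

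MAP3K20, the stress kinase ZAK, went from 622, 707 and 702 to 1211, 1043 and 1312 in A375 and from 4416, 3676 and 4464 to 3903, 2939 and 3671 in WM793. The difference was -1.07 (SE 0.21, adjusted p = 0.0054). APOBEC3B, a cytidine deaminase of DNA with close paralogs that make its counting uncertain, went from 73.2, 92.8 and 129 to 394, 477 and 452 in A375 and was at 558 to 715 in all 6 WM793 libraries. The difference was -2.18 (SE 0.45, adjusted p = 0.0089). In each of these 2 genes the A375 groups were apart and the WM793 groups overlapped.

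FBLN1, ERFE, FSTL1, CYRIA and FADS1, which have different functions, had a lower DOX effect in WM793 as well. FBLN1, fibulin 1 of the matrix and the only member of 39 called in the collagens and matrix list, was at 102, 116 and 245 and then at 305, 323 and 460 in A375, and at 2235, 2790 and 2774 and then at 2776, 2385 and 2364 in WM793. It rose in A375 (difference -1.36, SE 0.30, adjusted p = 0.016). ERFE, the hormone erythroferrone, went from 3.46, 4.33 and 8.1 to 21, 34.9 and 57.1 in A375 and was at 438 to 710 in WM793 (difference -2.53, SE 0.56, adjusted p = 0.017, called in 6 of 12 fits without 1 library). FSTL1, a secreted glycoprotein, had a difference of -0.96 (SE 0.22, adjusted p = 0.022). CYRIA, which binds RAC1, went from 0.629, 2.19 and 3.07 to 12.7, 18.1 and 12.7 in A375 (difference -2.86, SE 0.52, adjusted p = 0.0021), and its WM793 values, 342 to 590, overlapped. FADS1, the delta-5 fatty acid desaturase, had the smallest of these differences (-0.67, SE 0.17, adjusted p = 0.048, called in 3 of 12).

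NID2, NES, SDK1 and NEK6 had means that lay lower with DOX in WM793 and higher in A375, and of these 4 genes only SDK1 was called within a line. NID2, nidogen 2 of the basement membrane, was at 901, 804 and 702 and then at 651, 344 and 338 in WM793, and at 28.7, 31.5 and 42.1 and then at 48.2, 44.2 and 53.6 in A375. The groups were apart in both lines, in opposite directions, and the difference was -1.43 (SE 0.30, adjusted p = 0.01). NES, the intermediate filament nestin of neural crest cells, went from 22644, 34893 and 21820 to 10372, 20829 and 17363 in WM793 and from 1425, 1301 and 2195 to 2191, 1921 and 3039 in A375 (difference -1.28, SE 0.31, adjusted p = 0.032). Its A375 groups overlapped. SDK1, an adhesion molecule, had a difference of -1.37 (SE 0.33, adjusted p = 0.032), with a rise of 0.87 in A375 (adjusted p = 0.04), and NEK6, a kinase with a role in mitosis that was not among the 54 genes assigned to division, one of -0.72 (SE 0.18, adjusted p = 0.043, called in 2 of 12).

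CCDC149, a coiled-coil protein, fell in WM793. It was at 12.1, 9.37 and 16.1 without DOX and at 0, 1.3 and 1.48 with DOX, and in A375 at 166, 152 and 83.2 and then at 178, 95.8 and 59.2. The WM793 groups were apart at values near 0, against 220 to 373 under DMSO, and the difference was -2.54 (SE 0.55, adjusted p = 0.013).

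Among genes with a higher DOX effect in WM793, RYR2 had the largest difference of those with a mean of at least 50. It encodes the calcium release channel of cardiac sarcoplasmic reticulum and lies at chr1:237042184-237833988 on the plus strand. In WM793 it was at 0.866, 11 and 14.5 without DOX and at 212, 296 and 287 with DOX, and under DMSO at 30.3, 77.6 and 65.4 and then at 208, 490 and 367. In A375 it was at 276, 237 and 266 and then at 283, 264 and 388. The WM793 groups did not overlap, 2 of the 3 WM793 libraries with DOX lay in the range of the treated A375 libraries and 1 below it, and the A375 groups overlapped. The difference was 4.98 (SE 0.99, adjusted p = 0.0058), and with a pseudocount of 0.1 it was 5.36 with an adjusted p of 0.18.

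MAFF, a small MAF factor that pairs with AP-1 and CNC proteins and lies at chr22:38200767-38216507, rose in WM793. Its values there were 650, 930 and 1206 without DOX and 2250, 2132 and 2743 with DOX. In A375 they were 98.5, 138 and 115 and then 87.5, 79.5 and 116. The WM793 groups did not overlap and the A375 groups did, and the difference was 1.70 (SE 0.32, adjusted p = 0.0028). MAFF was the only member of the ERK output list called, and fell with the inhibitors in both lines, by 1.66 in WM793 and by 2.76 in A375 on the log2 scale.

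KCNJ9, a potassium channel subunit activated by G proteins, was listed at 0 in the 3 WM793 libraries without DOX and at 22.6, 38.5 and 50.2 with DOX. In A375 it was listed at 0 in 5 of 6 libraries and at 0.846 in the other. The fitted difference of 5.48 (SE 0.73, adjusted p = 0.00021) depends on the pseudocount and is no bound. ACSL5, an acyl-CoA synthetase, was likewise listed at 0 in WM793 without DOX and at 12.3, 1.63 and 4.08 with DOX, and at 268 to 406 in A375 (difference 2.46, SE 0.56, adjusted p = 0.021). In both genes the change in WM793 took place at low values.

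GIPC3, a PDZ protein needed for hearing, differed through A375. It was at 24, 15.4 and 10.6 without DOX and at 2.04, 4.19 and 3.66 with DOX there, listed at 0 in all 3 DMSO libraries, and at 2112 to 2240 in WM793. The A375 groups were apart at low values. The difference was 2.04 (SE 0.32, adjusted p = 0.0007), and with a pseudocount of 0.1 it was 2.32 with an adjusted p of 0.14.

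Smaller differences were found at high values. ANXA4, a calcium-dependent membrane-binding annexin, was at 1020, 884 and 774 and then at 1388, 1239 and 1188 in WM793, and at 2954, 2722 and 2829 and then at 2862, 2813 and 2114 in A375. It rose in WM793 by 0.52 (adjusted p = 0.044), with a difference of 0.66 (SE 0.16, adjusted p = 0.039, called in 4 of 12 fits without 1 library). BTBD19 had a difference of 1.24 (SE 0.31, adjusted p = 0.045) and PDE4DIP, a centrosome and Golgi scaffold with near-identical gene copies that make its value uncertain, one of 1.19 (SE 0.29, adjusted p = 0.039). In both, the WM793 values lay higher with DOX without overlap, the mean of A375 lay lower, no change was called within a line, and the difference was called in 3 of 12 fits.

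The library preparation did not mark the strand, so reads of genes that overlap on opposite strands cannot be told apart. Overlaps were looked up for the genes whose tested differences are given above, other than FANCL. A protein-coding gene lies on the opposite strand at MAFF (PLA2G6), ANXA4 (AAK1), ACSL5 (ZDHHC6), SKP2 (NADK2), FADS1 (FADS2), CKAP2L (NT5DC4), ERCC6L (PIN4), DDIAS (PRCP), DTL (INTS7), GINS1 (NINL), RAD54L (LRRC41), FANCD2 (FANCD2OS), FOXM1 (RHNO1 and ITFG2), NID2 (RTRAF), PRIM1 (HSD17B6), HSPD1 (HSPE1 and MOB4), CCND1 (LTO1), CDKN1B (GPR19) and IL6 (STEAP1B). A named antisense or other noncoding RNA overlaps KIF23, DEPDC1, GINS4, BLM, MAP3K20, APOBEC3B, SDK1, ANXA4, CDKN1A, DKK1, IL6 and PDK1 in the same way, and further genes overlap transcripts without a symbol or pseudogenes.

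Some of these calls depended on which libraries entered the fit. Of the 54 named genes called, 36 were called in all 12 fits that left out 1 library, among them all those named of the mitosis list and RYR2, MAFF, KCNJ9, GIPC3, SKP2, GGH, MAP3K20 and APOBEC3B. Calls were lost in part of these fits for ACSL5, CDKN3 and FBLN1 (called in 8 of 12), CCDC149 (9), NES (7), FSTL1 and SDK1 (6), GINS4 (11, lost without replicate 2 of A375 under BRAFi + MEKi) and NID2 (11, lost without replicate 3 of WM793 under BRAFi + MEKi + DOX), with adjusted p up to 0.14 for NES. With the 12 libraries alone in the fit, the calls of ACSL5 (adjusted p = 0.18), CCDC149 (0.17), FBLN1 (0.2), NID2 (0.13), NES (0.25), ANXA4 (0.23), FADS1 (0.17), PDE4DIP (0.082), GINS1 (0.081), FSTL1 (0.075), PRIM1 (0.068), PCLAF (0.065), BTBD19 (0.061) and MND1 (0.051) were lost at the same differences.

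**Figure D4:**
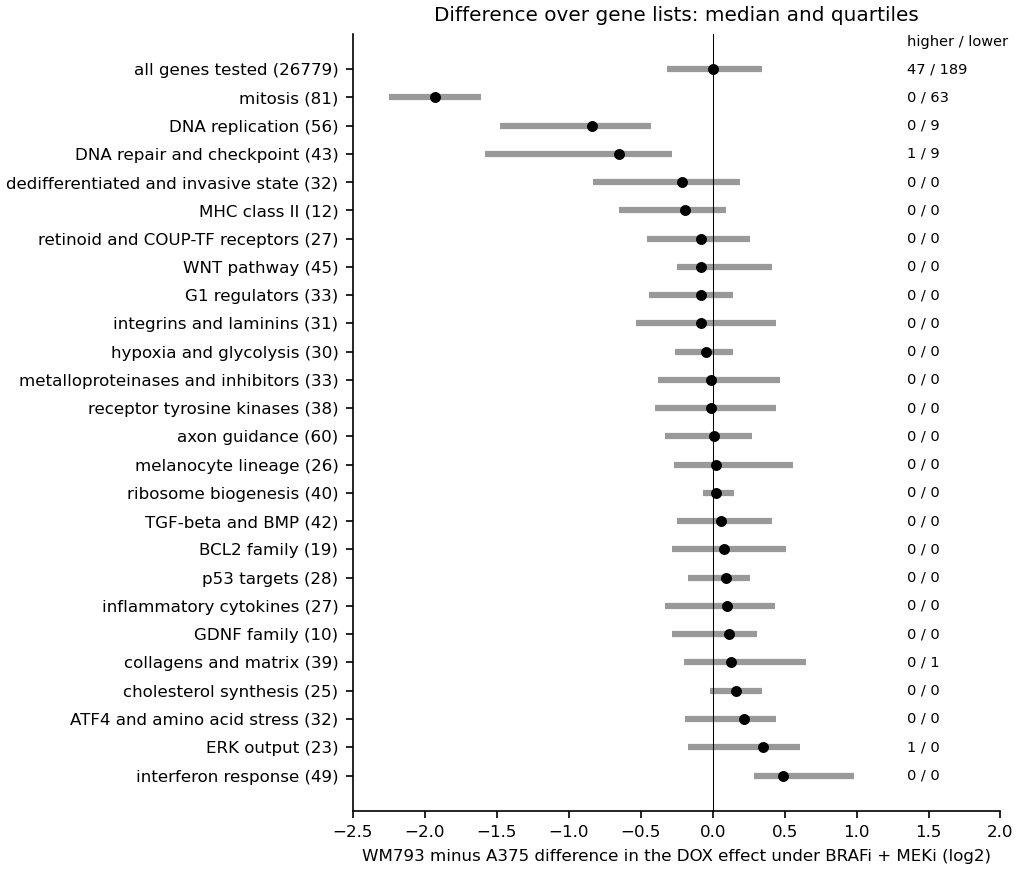
Differences in DOX effect under BRAFi + MEKi, WM793 minus A375 in log2 units (x axis), for each gene list (y axis, number of genes tested in brackets), with a point at the median, a bar between the quartiles and the counts of genes called higher and lower. Mitosis has its median at -1.93 and most lists outside the cell cycle lie near 0.

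The lists outside the cell cycle held few differences. The interferon response list holds genes switched on by interferon signalling. In the limma fit without the replicate block, none of its 49 members was called in the difference or in either line. Of its differences, 44 of 49 were above 0, with a median of 0.49, against 13191 of all 26779. By limma's unadjusted p under 0.05, 6 of 49 had a higher DOX effect in WM793 (1003 of all 26779) and 0 a lower one, and within the lines 18 of 49 lay higher with DOX in WM793 (1004 of all 26779) and 0 in A375. The medians were 0.51 in WM793 and 0.04 in A375. Its mean log2 level was 9.26, 9.80 and 10.09 in WM793 without DOX and 10.14, 10.48 and 10.76 with DOX, and 9.82, 9.73 and 9.31 and then 9.39, 9.67 and 9.93 in A375. The groups overlapped in A375 and did not in WM793. Between same-numbered libraries the level lay higher with DOX each time in WM793 and went both ways in A375. Calls with the replicate block are not given for this list. ISG15, a ubiquitin-like interferon target, had a difference of 2.05 (SE 0.81, adjusted p = 0.41) and is shown as an example chosen after its values were seen.

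ERK output had 1 of 23 called and a median of 0.35, and collagens and matrix 1 of 39 and a median of 0.13. Of all genes tested, 0.881% were called. The other topic lists, among them melanocyte lineage, invasive state, integrins, hypoxia, cholesterol synthesis, WNT and p53 targets, had none called by limma. Their medians lay between -0.21 and 0.22. By unadjusted p under 0.05, 0 to 4 genes per list differed in each direction, beside 1003 higher and 1236 lower of all 26779. Genes of MHC class II, which present antigen, lay lower with DOX in both lines. In each line 12 of 12 were below 0 (11546 of all 26779 genes in WM793 and 12837 in A375), with medians of -1.15 in WM793 and -0.98 in A375. By the adjusted test without the replicate block, 1 of the 12 fell in WM793 (0.0934% of all genes) and 0 in A375 (0.467%). Between same-numbered libraries the mean level of the list lay lower with DOX each time in both lines. In 1205Lu under BRAFi + MEKi the list went the other way: 11 of 12 were above 0 (11407 of all 26779), with a median of 0.55, and 1 rose by the adjusted test (1.15% of all genes).

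Fewer genes differed between the lines without inhibitors. Under DMSO the DOX effect differed for 38 genes (0.142%), 24 higher (0.0896%) and 14 lower (0.0523%) in WM793. The count was 75 without replicate 3 of A375 under DMSO, 21 without replicate 2 of WM793 under DMSO + DOX, 3 with only the libraries compared and 58 with the replicate number as a block. The median DMSO difference of the 81 mitosis genes was 0.13, and that of the 189 lower genes 0.02, with 81 of 189 on the same side of 0 as under BRAFi + MEKi. Of the 189, SKP2 was also lower under DMSO, and of the 47 only 1 gene, a long noncoding RNA without a symbol, was also higher.

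The change of the line difference between BRAFi + MEKi and DMSO was tested directly as well. It passed for 24 genes (0.0896%), 4 up (0.0149%) and 20 down (0.0747%), and 17 of the 20 were among the 189. The count was 78 with the replicate block and depended on single libraries: it was 14 without replicate 1 of WM793 under DMSO, 117 without replicate 3 of A375 under BRAFi + MEKi and 2 without replicate 3 of WM793 under BRAFi + MEKi + DOX. Of the mitosis list 11 of 81 passed, among them TTK (adjusted p = 0.03), KIF23 (0.03), KIF20B (0.04) and BUB1 (0.045), and of DNA replication 2 of 56, ASF1B (0.03) and CLSPN (0.036). SHCBP1 (0.04) and GGH (0.03) passed too, as did GIPC3 among the higher genes (0.026). For SKP2 the test gave an adjusted p of 1, with -2.25 and -2.40 in the presence and absence of inhibitors. The genes that did not pass, MAFF (0.64) and RYR2 (0.88) among them, are not shown to differ between BRAFi + MEKi and DMSO.

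**Figure D5:**
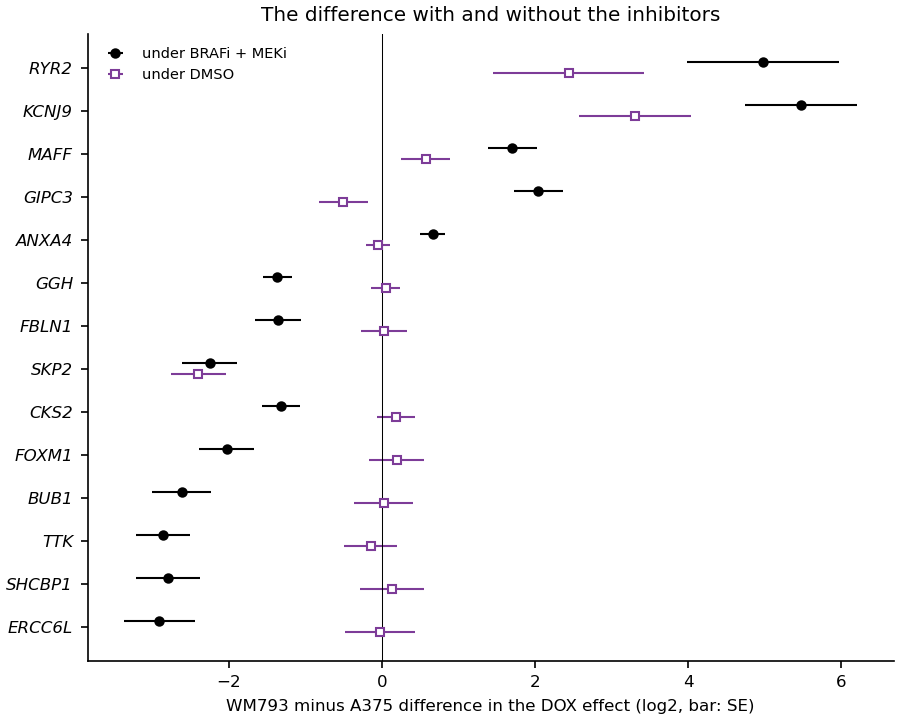
Difference in DOX effect, WM793 minus A375 in log2 units, under DMSO and under BRAFi + MEKi for single genes, with points for estimates and bars for standard errors. TTK and BUB1 lie near 0 under DMSO and at -2.86 and -2.62 under BRAFi + MEKi, while SKP2 lies at -2.40 and -2.25.

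In 1205Lu 59 of the 81 mitosis genes rose with DOX under BRAFi + MEKi (1.15% of all genes tested rose and 1.69% changed), with a median of 1.21, beside 77 with 1.80 in A375 and 0 with -0.16 in WM793. Its mean mitosis level was 8.39, 9.64 and 9.51 without DOX and 10.30, 10.27 and 10.36 with DOX, between those of the other lines. MAFF was at 153, 184 and 110 and then at 132, 121 and 146 there. RYR2 was listed at 0 in all 3 libraries without DOX and at 6.66, 10.7 and 0 with DOX. Differences between 1205Lu and the other lines were not tested.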

How the data were processed

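Libraries were made, per the labels, with the TruSeq RNA Library Prep Kit v2, which does not mark strand. By the submitters' processing notes and the study's methods, reads were aligned with STAR 2.7.0 to GRCh38 with GENCODE 35, counted with RSEM 1.2.28 and normalized with DESeq2 1.28.1. The authors deposited 1 file per library with a normalized signal value for each of 60656 genes, and 60401 gene IDs carry a symbol. The values are not whole reads (38% to 64.2% of low values were whole multiples of the commonest low value in the 12 libraries), so the count tests planned for whole reads were not run.

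limma 3.58.1 in R 4.3.3 was run on log2(value + 1) of all 36 libraries with 12 group means, a trended prior and 24 residual degrees of freedom, after genes whose mean was under 1 in all 12 groups had been removed, which left 26779. The contrast was (BRAFi + MEKi + DOX minus BRAFi + MEKi) in WM793 minus the same in A375, with Benjamini-Hochberg adjustment over all genes and a threshold of 0.05. The same model gave the effect within each line, the contrast under DMSO and the difference between the 2 contrasts. The script was tested on simulated data.

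Genes named were those the study names, the called genes with the largest differences among those with a mean of at least 50 (up to 12 in each direction outside the cell cycle lists), the 6 with the smallest p in each cell cycle list and the called members of other lists. The members and lists were chosen with earlier results of these data known. Coordinates are from GENCODE 44 on GRCh38 and promoters from the RefSeq table of GRCh38.p14. Tables and figures were made with Python 3.11.15, pandas 2.3.3, numpy 2.4.6 and matplotlib 3.10.9. Alternatives were a pseudocount of 0.1, other filters on low values, the 12 libraries alone, library rescaling, array weights, the replicate number as a block and leaving out each library.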

Additional observations from a re-analysis of the deposited data

Results flagged for a closer look

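For 54 genes named above, the DOX effect under BRAFi + MEKi differed between the lines by the test of the difference itself (limma, Benjamini-Hochberg adjusted p under 0.05). The values are log2 differences, WM793 minus A375.

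Higher in WM793 were KCNJ9 at 5.48, RYR2 at 4.98, ACSL5 at 2.46, GIPC3 at 2.04, MAFF at 1.70, BTBD19 at 1.24, PDE4DIP at 1.19 and ANXA4 at 0.66.

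The next group holds genes of mitosis and genes assigned broadly to division, in part after their values were seen. Lower in WM793 among them were MND1 at -4.20, DDIAS at -3.04, ERCC6L at -2.91, TTK at -2.86, DEPDC1 at -2.81, SHCBP1 at -2.80 and BUB1 at -2.62. CKAP2L was at -2.39, FBXO43 at -2.33, SKP2 and KNL1 at -2.25, PLK4 at -2.19, CDCA2 at -2.17, BUB1B at -2.11, FOXM1 at -2.03, KIF20B at -1.96, KIF23 at -1.88, CDKN3 at -1.79 and CKS2 at -1.32.

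Lower among genes of DNA replication and repair were POLQ at -2.60, ASF1B at -2.49, BLM at -2.48, PCLAF at -2.40, FANCD2 at -2.34, DTL and RAD54L at -2.28, RAD51AP1 at -2.13, GINS1 at -1.93, GINS4 at -1.92, CLSPN at -1.89, ORC6 at -1.83, PRIM1 at -1.46 and RAD54B at -1.37.

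Lower among genes not assigned to division or the cell cycle lists were CYRIA at -2.86, CCDC149 at -2.54, ERFE at -2.53, APOBEC3B at -2.18, NID2 at -1.43, SDK1 and GGH at -1.37, FBLN1 at -1.36, NES at -1.28, MAP3K20 at -1.07, FSTL1 at -0.96, NEK6 at -0.72 and FADS1 at -0.67.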

How the results depend on the processing

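None of the 236 differences changed direction under an alternative that tested it. Genes removed by a stricter filter were not tested again there. Of the 236, 131 were called in each of the 12 fits that left out 1 of the libraries compared. Of the 54 named genes called, 32 were called under every alternative. The main counts below are those of the report. With the replicate block, 365 genes differed (87 higher), with 18 DNA replication genes lower, 138 genes changed in WM793, 58 differed under DMSO and 78 between treatments. The labels do not say what a replicate number shares. Deviations from the group means of same-numbered libraries correlated at 0.1 to 0.24 in WM793 and 0.05 to 0.16 in A375 over all genes tested, and at 0.25 to 0.49 and 0.14 to 0.33 over the 14671 genes with higher means, so whether the numbers pair the samples depends on the genes used. Replicate 2 of A375 correlated no better with its own number than with another (0.05 and 0.05, and 0.14 against 0.17). The block also gave 72 mitosis and 13 repair genes with a lower effect, and 771 genes changed in A375. For gene lists other than mitosis, replication and repair, only counts without the block are given. With array weights, 746 differed (241 higher, 505 lower), with 26 replication and 20 repair genes lower, 608 changed in WM793 and 1098 in A375, 98 differed under DMSO and 216 between treatments. With only the libraries compared, 181 genes differed (15 higher), and 135 of the 236 were called again. In that setting 52 mitosis and 14 replication genes were lower, 26 changed in WM793, 3 differed under DMSO and 108 between treatments. A minimum mean of 10 gave 20 higher and 12 under DMSO. A pseudocount of 0.1 gave 59 under DMSO and 42 between treatments, and no filter 60 and 40. Leaving out 1 library gave 179 to 361 differences, 34 to 90 higher, 135 to 271 lower, 52 to 71 for mitosis, 4 to 13 for replication, 8 to 11 for repair, 35 to 126 in WM793, 366 to 825 in A375, 21 to 75 under DMSO and 2 to 117 between treatments. The cause of these changes was not tested, except that fewer libraries and fewer genes entered some fits. With a pseudocount of 0.1, 42 genes were higher, and RYR2 and GIPC3 were not called. Count tests (edgeR, DESeq2) were not run because whole reads could not be recovered.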

Other observations

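SKP2 was the only gene among the 189 with a lower DOX effect in WM793 under both BRAFi + MEKi and DMSO, and its neighbours on chromosome 5 were looked at after its values were seen. Within 500 kb on each side, 10 other genes were tested. By limma none of them was called in the difference or in A375 under BRAFi + MEKi, beside 0.881% and 2.03% of all genes tested. With 10 genes this count cannot set the neighbours apart from other genes. Under DMSO, UGT3A1 was called with DOX in A375 (log2 change -1.43, adjusted p = 0.022), and none of the other neighbours was. The mean of UGT3A1 over the 12 libraries given BRAFi + MEKi was 0.204, near 0. In 1205Lu under BRAFi + MEKi, SKP2 was at 1170, 1519 and 1610 without DOX and at 1233, 3375 and 3312 with DOX, where replicate 1 stayed at the level without DOX.

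NID2 and NES, which lay lower with DOX in WM793 and higher in A375, fell with DOX in 1205Lu by 1.17 and by 1.33 on the log2 scale (limma, adjusted p = 0.0025 and 0.00093). NES was at 44109, 42978 and 36417 there without DOX and at 18893, 14960 and 15325 with DOX, and the groups did not overlap.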
